A study of Mus musculus with 6 samples.

Results

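Poly(A) binding proteins coat the tail of an mRNA, and the partners described here tune how well the cytoplasmic ones hold the tail and recruit ribosomes. Ribosome footprints on 8 such genes, of 22416 in the deposited table, were read in mouse oocytes. They were chosen by gene name, and all 8 were present and passed the filter on low values. Pabpn1l and Pabpn1 are of the nuclear type, Pabpc1l, Pabpc1 and Pabpc4 of the cytoplasmic type, and Paip1, Paip2 and Paip2b are partners of the cytoplasmic type. Ribo-lite, a ribosome profiling protocol for few cells, had been run on 500 oocytes per library, with 2 libraries in each of 3 groups. WT_FGO held fully grown oocytes before meiosis resumed. The methods state DMSO treatment for control oocytes of this stage as well as of metaphase II. WT_MII held oocytes that had reached metaphase II in culture with the solvent DMSO. Treat_MII held oocytes labelled metaphase II and cultured with BYBX, a ligand that stabilizes RNA G-quadruplexes (folds of G-rich RNA). The study reports that polar body emission, which marks this stage, fell with rising BYBX dose. A small proportion of treated oocytes reached metaphase II, with abnormal spindles. Whether the treated oocytes used for Ribo-lite were selected by polar body is not stated. The labels say only that the last group was treated, and the agent, BYBX at 1 μM, is taken from the study's text. The methods describe C57BL/6 females of 4 weeks, primed with 5 IU PMSG and killed 44 h later, and no genetic change is stated for any group. The study's supplement calls the Ribo-lite replicates biological. Neither it nor the labels say whether the 2 libraries of a group came from separate animals or cultures, so p-values measure the spread between these libraries.

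A growing oocyte stores mRNA with short tails, and at meiotic resumption some of these tails are lengthened in the cytoplasm while other mRNAs lose their tail and are degraded. A cytoplasmic poly(A) binding protein on the tail contacts the scaffold eIF4G at the cap and favours initiation. PAIP1 adds to this contact, whereas PAIP2 and PAIP2B displace the protein from the tail and repress translation. Oocytes hold their own forms of both types: PABPC1L, also called ePAB, is the main cytoplasmic form in the mouse oocyte, and PABPN1L binds tails in the oocyte cytoplasm and takes part in the clearance of maternal mRNA.

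Values were FPKM, footprint reads scaled to the coding length of the gene and to the reads of its library, so levels could be compared between genes per coding length and between libraries only as shares of a library. In bulk oocyte samples, fewer cells and less RNA per cell cannot be told apart. The libraries held 94309 and 107251 reads in WT_FGO, 164972 and 230907 in WT_MII, and 331304 and 275604 in Treat_MII. All 10 oocyte markers had reads in all 6 libraries. Markers of cumulus or granulosa cells, which surround the oocyte, summed to 98.9 to 141 FPKM in 5 libraries and to 1098 FPKM in WT_FGO replicate 2, of which Inha made up 747 FPKM and Amh 196 FPKM. Foxl2 (33.2 FPKM), Fshr (13.5), Cyp11a1 (66.3) and Star (10.9) were also highest in that library. Cyp19a1 was lowest there, at 24.7 FPKM, and Amhr2, at 5.47 FPKM, was higher in WT_MII replicate 2. Of these 12 markers 4 were at 0 in that library, Nr5a2, Has2, Ptx3 and Tnfaip6, and Tnfaip6 was at 0 in all libraries.

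The 3′ ends of the mRNAs are shown first because the tail is added there, downstream of the letters AATAAA or ATTAAA, the polyadenylation signal. Each line gives 30 bases of the 3′-UTR of the longest coding transcript (GENCODE, GRCm38), 5′ to 3′ on the coding strand, with the last signal in capitals. For Pabpn1l (chr8:122619473-122619502, minus strand), Pabpc1l (chr2:164050505-164050534, plus), Pabpc1 (chr15:36595664-36595693, minus), Pabpc4 (chr4:123298886-123298915, plus), Paip1 (chr13:119458171-119458200, plus) and Paip2b (chr6:83805401-83805430, minus) they read:
Pabpn1l: agaatgtaaattATTAAActtgaatatatt
Pabpc1l: tttgctttatatATTAAAaaatgctgcaaa
Pabpc1: aattcttgctttAATAAAaattccttaaac
Pabpc4: ctgcatatattaAATAAAtttactttccct
Paip1: ttagaatttgaaAATAAAacttagtttgtt
Paip2b: atccaaccaaacAATAAAgctgactgcata
The oocyte forms Pabpn1l and Pabpc1l carried ATTAAA, 20 and 22 bases from the 3′ end, and the other genes shown carried AATAAA, 18 to 36 bases from it. In the longest coding transcript of Pabpn1 neither form of the signal was found in the 3′-UTR. The last signal of Paip2, 22 bases from the 3′ end, is not shown.

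Cytoplasmic tail lengthening in oocytes is directed by the cytoplasmic polyadenylation element, searched here as TTTTAT or TTTTAAT on the sense strand of the 3′-UTR. Of the 14806 tested genes with an annotated transcript, 58.3% held these letters, and so did 5 of the 8 genes. Paip1 held 4 copies, Paip2b held 3, and Pabpc1, Pabpc4 and Paip2 held 1 each. Pabpn1l, Pabpn1 and Pabpc1l held none, in the longest or in any other coding transcript. The last copy is shown for 4 genes, in capitals within 30 bases, for Paip1 (chr13:119457976-119458005, plus strand), Pabpc1 (chr15:36595837-36595866, minus), Pabpc4 (chr4:123298832-123298861, plus) and Paip2b (chr6:83806221-83806250, minus):
Paip1: tttaagtaatgtTTTTATctaatgtcaaat
Pabpc1: aacaaattaatgTTTTATagaccctgggaa
Pabpc4: atttgatgccagTTTTATgttacaatcttg
Paip2b: agattgggtcctTTTTATtgaacccaggac
It lay 231 bases from the 3′ end in Paip1, 194 in Pabpc1, 82 in Pabpc4 and 838 in Paip2b. The 3′-UTR of Pabpn1l was 263 bases long, that of Pabpc1l 499, that of Paip1 1137 and that of Paip2b 3435, against a median of 1022 over the tested genes.

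Because the treatment stabilizes RNA G-quadruplexes, their sequence motif was searched too, as 4 runs of at least 3 G separated by 1 to 7 bases. It is a description of the letters and not a measured fold. The study did measure G-quadruplex signal, and reports that it rose in the 3′-UTR of Pabpn1l after BYBX. In the 3′-UTR, 11.6% of the tested genes held it, among them Pabpn1l, Pabpn1 and Paip2b. In the 5′-UTR 7.62% held it, among them Pabpc4, and in the coding sequence 4.43%, among them Pabpn1. The longest coding transcript of Pabpn1, used here, has a 5′-UTR of 1 base, so no motif could be found there. No motif was found in Pabpc1l, Pabpc1, Paip1 or Paip2. With the G runs in capitals, the motifs of Pabpn1l (3′-UTR, chr8:122619577-122619598, minus strand), Paip2b (3′-UTR, chr6:83808717-83808733, minus) and Pabpc4 (5′-UTR, chr4:123283587-123283612, plus) were:
Pabpn1l: GGGcaGGGaGGGGaGGGaGGGG
Paip2b: GGGcGGGttGGGttGGG
Pabpc4: GGGGctcGGGGtcgtGGGGGGtGGGG

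In fully grown oocytes the repressor genes Paip2 and Paip2b had the highest footprint levels of the 8 and Pabpc4 the lowest. By mean FPKM the order was Paip2, Paip2b, Paip1, Pabpc1l, Pabpc1, Pabpn1, Pabpn1l and Pabpc4, and the libraries of Paip1 and Pabpc1l, of Pabpn1 and Pabpn1l, and of Pabpn1l and Pabpc4 overlapped. In WT_MII the order became Paip1, Pabpn1l, Paip2b, Paip2, Pabpn1, Pabpc1, Pabpc4 and Pabpc1l. There Paip1 stood clear of Pabpn1l and Paip2 clear of Pabpn1, and all other neighbours overlapped. In Treat_MII it was Paip1, Pabpn1l, Paip2, Paip2b, Pabpn1, Pabpc1l, Pabpc1 and Pabpc4, with only the neighbours Paip2 and Paip2b overlapping. Together the 8 genes took 0.550% and 0.482% of the summed FPKM in WT_FGO, 0.324% and 0.379% in WT_MII, and 0.403% and 0.400% in Treat_MII.

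**Figure D1:**
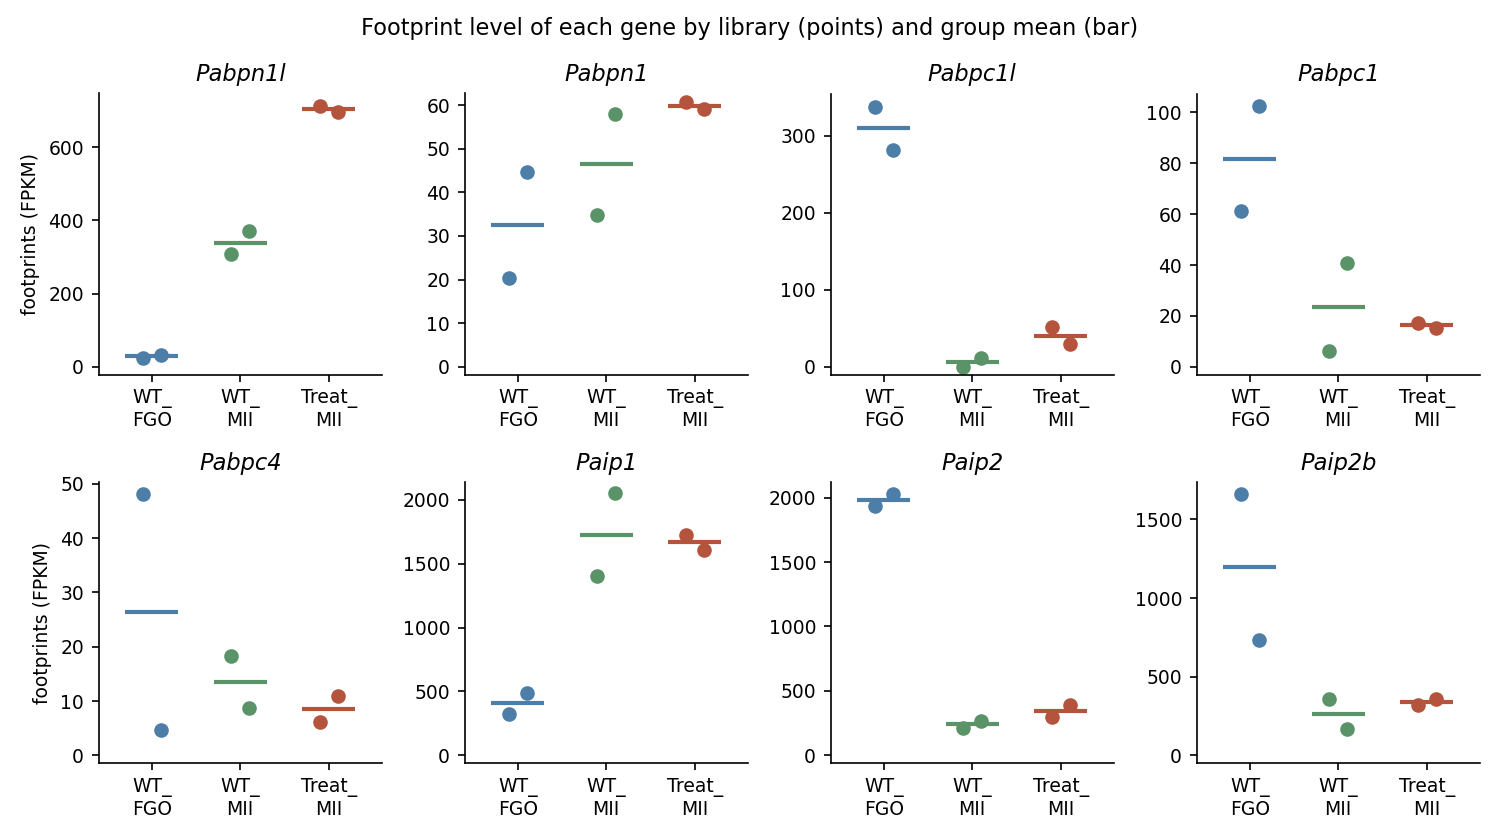
Footprint level in FPKM (vertical axis, starting at 0 and scaled per gene) of the 8 genes in the 3 groups, with a point for each library and a bar for the group mean of 2 libraries. Pabpn1l rises from under 33 FPKM in WT_FGO to over 300 in both other groups, while Pabpc1l and Paip2 stand highest in WT_FGO.

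Maturation was examined as WT_MII against WT_FGO. Footprints on Pabpn1l and Paip1 rose, those on Pabpc1l and Paip2 fell, and Pabpn1, Pabpc1, Pabpc4 and Paip2b did not pass the test. limma (log2(FPKM + 1), Benjamini-Hochberg over 15129 genes, adjusted p under 0.05) thus called 4 of the 8, against 6.76% of all tested genes (3.67% higher and 3.09% lower). Without overlap between the groups, 2 of the 8 were higher in WT_MII and 4 were lower, against 15.3% and 25.8% of all tested genes. The median difference of the 8 genes was -1.22 on the log2 scale, and that of all tested genes was -0.44. These calls rested on the spread estimated from all 6 libraries: fitting the WT_FGO and WT_MII libraries alone, leaving out the mean-variance trend, or leaving out Treat_MII replicate 1 or replicate 2 left 0 of the 4, and leaving out WT_FGO replicate 1 left Pabpn1l and Paip2. Any of the other WT libraries left out removed 1 call, that of Pabpc1l without WT_FGO replicate 2 and that of Paip1 without either WT_MII library.

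Pabpn1l (GRCm38 chr8:122619471-122622739, minus strand) showed the largest rise of the 8. Its libraries read 24.5 and 32.4 FPKM in WT_FGO and 309 and 371 FPKM in WT_MII. The groups did not overlap, and the gene went from rank 3704 of 22416 by mean FPKM to rank 337. The rise was 3.54 ± 0.32 (SE, n = 2 per group) on the log2 scale (limma, adjusted p = 0.00401). WT_FGO held only 2 and 3 reads of it, against 44 and 74 in WT_MII, and the ratio of pooled reads scaled to depth was 12.02 with an exact 95% interval of 5.01 to 37.7. Intervals of this kind hold the error of counting alone, because reads copied by PCR do not each stand for a molecule. None of its coding words of 28 bases, about the length of a footprint, occurred in another gene's transcript.

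Pabpn1, the general nuclear form that stimulates poly(A) polymerase and sets tail length, had 20.3 and 44.6 FPKM in WT_FGO and 34.8 and 58.0 FPKM in WT_MII. The groups overlapped, the difference was 0.56 ± 0.58 (SE, limma, adjusted p = 0.575), and 2 to 14 reads stood behind each value. Its level was uncertain because 52.8% of its coding words also occur in other genes, among them Gm20521. Relative to Pabpn1, Pabpn1l stood at 1.21 and 0.726 times in the WT_FGO libraries and at 8.87 and 6.39 times in those of WT_MII. By these ratios the oocyte form went from about equal to the general form to several times its level. The WT_FGO ratios are rough, from 2 and 3 reads of Pabpn1l and 2 and 5 of Pabpn1.

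Pabpc1l (chr2:164025450-164050538, plus strand) fell furthest. It had 338 and 282 FPKM in WT_FGO, from 58 and 55 reads, and 0 and 11.9 FPKM in WT_MII, from 0 and 5 reads. A count of 0 in WT_MII replicate 1 allows up to 9.99 FPKM (3 reads). The groups stood far apart, and the gene passed from rank 365 to rank 7588. It fell by 6.43 ± 1.18 (SE) on the log2 scale (limma, adjusted p = 0.0334), and pooled reads were 44.4 times higher in WT_FGO (exact 95% interval 18.5 to 139). With a pseudocount of 0.1 the adjusted p was 0.114, and it lay between 0.172 and 0.191 without either WT_FGO library or either Treat_MII library. The size turned on the WT_MII library: the gene fell by 8.27 without WT_MII replicate 2 and fell by 4.59 without replicate 1. None of its coding words occurred elsewhere.

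Pabpc1, the general cytoplasmic form, had 61.1 and 103 FPKM in WT_FGO and 6.35 and 40.9 FPKM in WT_MII. Both WT_MII libraries lay below both WT_FGO libraries, but they differed widely, and the difference of -2.19 ± 0.90 (SE) did not pass (limma, adjusted p = 0.221). It was -0.94 without WT_MII replicate 1 and -3.45 without replicate 2, and limma-voom on reads called it (adjusted p = 0.0292). Pabpc4, the inducible form, had 48.2 and 4.71 FPKM in WT_FGO and 18.4 and 8.74 in WT_MII, from 1 to 9 reads each. Its groups overlapped, with a difference of -0.29 ± 1.16 (SE, limma, adjusted p = 0.938) that was 0.18 after centring on the median ratio and 0.54 after quantile normalization. Of the coding words of Pabpc1 53.3% and of those of Pabpc4 89.3% occur in other genes, many of them predicted genes, so both levels were uncertain.

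Summed over Pabpc1, Pabpc1l and Pabpc4, the cytoplasmic forms had 447 and 389 FPKM in WT_FGO and 24.7 and 61.5 FPKM in WT_MII. Pabpc1l made up 75.5% and 72.4% of this sum in WT_FGO and 0% and 19.3% in WT_MII. The footprints on the cytoplasmic type were thus mostly those of the oocyte form in WT_FGO and not in WT_MII. Few reads stood behind the WT_MII shares: 0 and 5 of Pabpc1l, 2 and 18 of Pabpc1, and 6 and 4 of Pabpc4. In Treat_MII the share of Pabpc1l was 68.6% and 53.3%.

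Of the partner genes, the activator Paip1 rose, the repressor Paip2 fell and the repressor Paip2b did not pass. Paip1 (chr13:119428601-119458218, plus strand) had 327 and 487 FPKM in WT_FGO and 1403 and 2054 FPKM in WT_MII, from 49 to 754 reads. With no overlap, it rose by 2.09 ± 0.30 (SE) on the log2 scale (limma, adjusted p = 0.0156), a pooled ratio of 4.33 (exact 95% interval 3.61 to 5.22), and reached rank 62 of all genes. Its call was lost without WT_FGO replicate 1, either WT_MII library or either Treat_MII library (adjusted p between 0.0753 and 0.139), while the change stayed between 1.80 and 2.37.

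Paip2, a repressor, had 1938 and 2030 FPKM in WT_FGO, rank 50 of all genes, and 212 and 268 FPKM in WT_MII, rank 485. It fell by 3.05 ± 0.26 (SE) on the log2 scale (limma, adjusted p = 0.00330), and pooled reads were 8.13 times higher in WT_FGO (exact 95% interval 5.62 to 12.05). Paip2b, its paralog, had 1663 and 731 FPKM in WT_FGO and 357 and 170 FPKM in WT_MII. Its groups did not overlap either, but its WT_FGO libraries differed widely and the difference of -2.16 ± 0.51 (SE) missed the threshold (limma, adjusted p = 0.0652). It passed with a minimum of 5 FPKM (adjusted p = 0.0449), with the replicate number as a block (adjusted p = 0.0413) and with limma-voom on reads (adjusted p = 0.000117). WT_FGO replicate 2, the library with the high Inha and Amh, held the lower WT_FGO value of Paip2b, Pabpc4 and Pabpc1l. It held the higher WT_FGO value of Pabpn1l, Pabpn1, Pabpc1, Paip1 and Paip2. The part of cumulus or granulosa cells in these values was not tested.

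The level of the activator was also read relative to the repressors, as a description with no test. Divided by the sum of Paip2 and Paip2b, Paip1 gave 0.0907 and 0.176 for WT_FGO, then 2.47 and 4.69 for WT_MII, and 2.79 and 2.16 for Treat_MII. All WT_FGO values lay below 1 and all metaphase II values above 1.

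**Figure D2:**
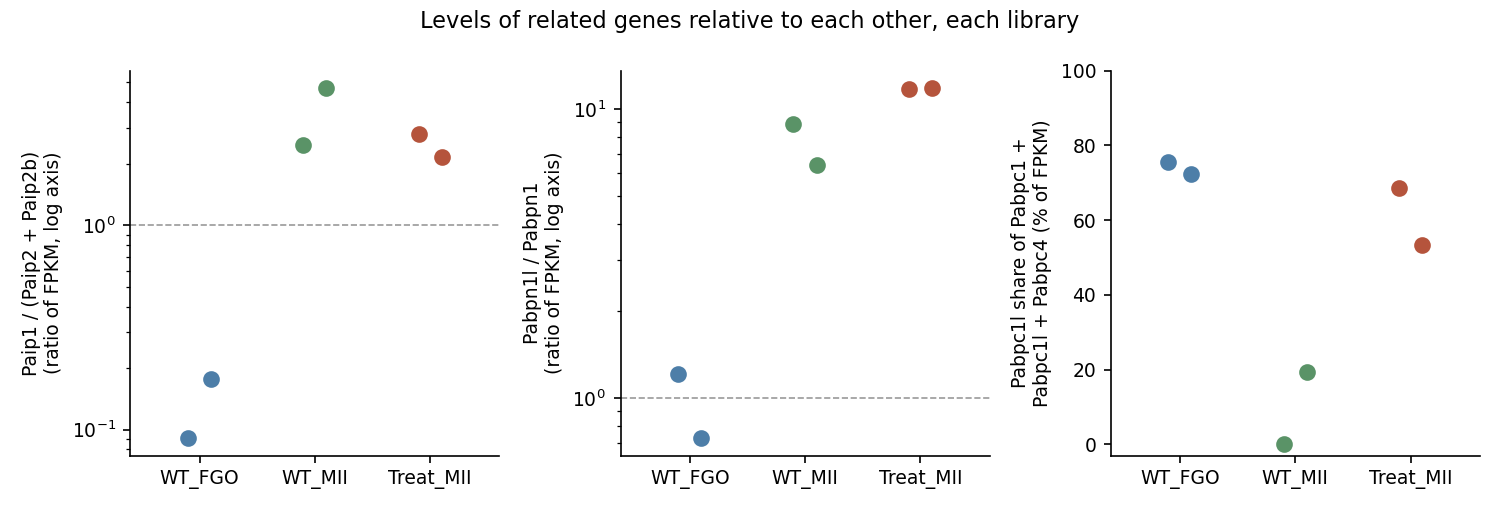
Ratio of FPKM of Paip1 to Paip2 plus Paip2b (left, log axis), of Pabpn1l to Pabpn1 (middle, log axis), and share of Pabpc1l in the summed FPKM of Pabpc1, Pabpc1l and Pabpc4 (right, percent), with a point for each of the 2 libraries of a group. The left ratio lies below 1 (dashed line) in WT_FGO and above it in both metaphase II groups, and the share of Pabpc1l is lowest in WT_MII.

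The effect of the treatment was examined as Treat_MII against WT_MII, which shares the WT_MII libraries with the maturation comparison. limma called 0 of the 8 genes, and 0% of the 15129 tested genes. At an unadjusted p under 0.05 there were 881 genes, of which Pabpn1l and Pabpc1l are members of the family, and limma-voom on recovered reads, chosen after the data were seen, called 165 genes and 0 of the 8. Both Treat_MII libraries lay above both WT_MII libraries for 4 of the 8 and below them for 0, against 16.2% and 15.6% of all tested genes. The median difference of the 8 was 0.43 on the log2 scale and that of all tested genes was 0.

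Pabpn1l had 713 and 697 FPKM in Treat_MII, from 204 and 166 reads, against 309 and 371 FPKM in WT_MII. The groups did not overlap, and the Treat_MII libraries were close to each other. The difference was 1.06 (95% interval 0.28 to 1.84) on the log2 scale and did not pass adjustment (limma, adjusted p = 0.802). The pooled reads stood at a ratio of 2.05 (exact 95% interval 1.66 to 2.54). With voom on reads the difference was 1.04 with an adjusted p of 0.0698. The study reports that BYBX repressed an injected reporter mRNA with the Pabpn1l 3′-UTR. A form with the G-quadruplex disrupted showed no significant change. That reporter was read as protein, whereas the values here are footprints on the gene's own mRNA as shares of a library. Why the directions differ was not tested.

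Pabpc1l had 51.4 and 29.9 FPKM in Treat_MII, from 31 and 15 reads, against 0 and 11.9 FPKM in WT_MII. Both treated libraries lay above both controls and far below WT_FGO. The difference was 3.49 (95% interval 0.61 to 6.36; limma, adjusted p = 0.836), and the ratio of pooled reads was 6.001 (exact 95% interval 2.39 to 19.4), from 46 reads against 5. The size turned on the control library. Without WT_MII replicate 2 the control rested on the library with 0 reads, the difference was 5.33 and limma called it (adjusted p = 0.0498). Without WT_MII replicate 1 it was 1.64 (limma, adjusted p = 0.445). The share of Pabpc1l in the summed cytoplasmic forms was 68.6% and 53.3% in Treat_MII, between the WT_MII and the WT_FGO values.

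Most markers of the oocyte differed between the groups as Pabpc1l did. Of the 10 markers, 9 had both WT_MII libraries below both WT_FGO libraries, and the same count had both Treat_MII libraries above both WT_MII libraries. Oosp1 was the exception in each case: it had 122 and 185 FPKM in WT_FGO, 11263 and 15029 in WT_MII, and 14459 and 15094 in Treat_MII, where it overlapped WT_MII. The other 9 markers summed to 56765 and 38232 FPKM in WT_FGO, 8283 and 8510 in WT_MII, and 15389 and 15561 in Treat_MII. With Oosp1 the sums were 38417 to 56887, 19546 to 23539 and 29848 to 30655 FPKM. Pabpn1l went with these 9 markers between WT_MII and Treat_MII and against them between WT_FGO and WT_MII. Their part in the values of Pabpc1l and Pabpn1l was not tested, and the treated libraries were also the deepest. How far the treated oocytes had matured was not tested either.

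Pabpn1 had 60.7 and 59.0 FPKM in Treat_MII, just above 58.0, the higher WT_MII value, a difference of 0.40 (95% interval -1.01 to 1.82; limma, adjusted p = 0.992). Pabpc1 had 17.4 and 15.2 FPKM, between its WT_MII values, and the difference of -0.02 had an interval from -2.22 to 2.18. Pabpc4 had 6.09 and 11.0 FPKM and a difference of -0.57 (95% interval -3.40 to 2.25). For these 3 genes, with 4 to 21 reads per treated library, the intervals of Pabpc1 and Pabpc4 leave room for a change of over 4-fold either way.

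The partners were better measured. Paip1 had 1726 and 1609 FPKM in Treat_MII, inside the range of WT_MII, and a difference of -0.03 (95% interval -0.75 to 0.69). The sign of so small a difference turned with the library left out (-0.30 to 0.25). Paip2 had 300.2 and 390 FPKM, above both WT_MII values, with a difference of 0.52 (95% interval -0.12 to 1.17; limma, adjusted p = 0.932). Paip2b had 318 and 356 FPKM, inside the WT_MII range, and a difference of 0.45 (95% interval -0.80 to 1.70). The interval of Paip1 leaves out changes of 2-fold or more in either direction.

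**Figure D3:**
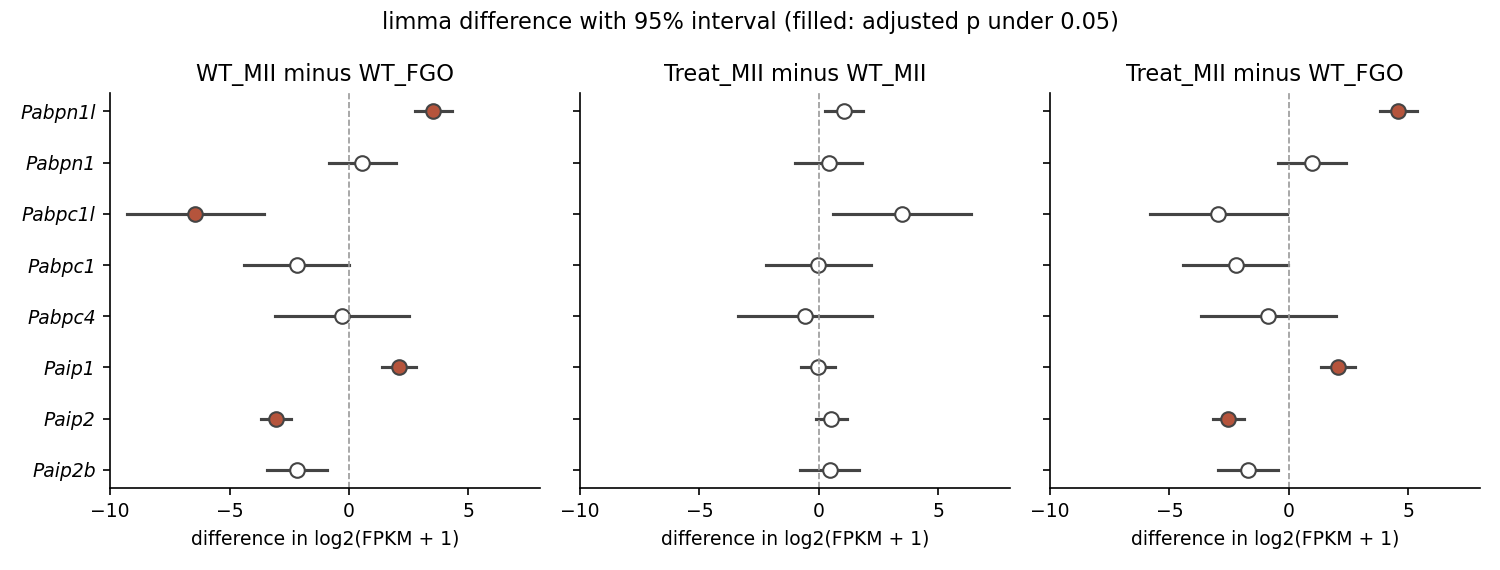
limma difference in log2(FPKM + 1) (horizontal axis) with its 95% interval for the 8 genes in the 3 comparisons, from 1 fit of all 6 libraries; filled points have an adjusted p under 0.05. There are 4 filled points for WT_MII minus WT_FGO, 0 for Treat_MII minus WT_MII and 3 for Treat_MII minus WT_FGO.

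Treated oocytes were also set against WT_FGO, a comparison that shares its libraries with both others. limma called 3 of the 8 genes, against 3.85% of all tested genes (2.86% higher and 0.998% lower). Without overlap, 3 of the 8 were higher in Treat_MII and 4 were lower, against 16.6% and 28.9% of all tested genes. The median difference was -1.29 for the 8 genes and -0.53 for all. Pabpn1l rose by 4.60 ± 0.32 (SE, limma, adjusted p = 0.00214), a pooled ratio of 24.6 (exact 95% interval 10.4 to 76.1). Paip1 rose by 2.06 ± 0.30 (SE, limma, adjusted p = 0.0206), and Paip2 fell by 2.53 ± 0.26 (SE, limma, adjusted p = 0.00725). Without either WT_MII or either Treat_MII library, Pabpn1l was the only one of the 3 still called, and without either WT_FGO library Paip1 was lost.

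Pabpc1l did not pass in this comparison. Both Treat_MII libraries lay below both WT_FGO libraries, with a difference of -2.94 ± 1.18 (SE, limma, adjusted p = 0.241), and pooled reads were 7.40 times higher in WT_FGO (exact 95% interval 5.21 to 10.7). The differences of Pabpc1 (-2.22, adjusted p = 0.248) and Paip2b (-1.71, adjusted p = 0.143) also missed the threshold in limma, with groups that did not overlap. With voom on reads all 3 were called, with adjusted p values of 1.00e-08, 0.00551 and 0.000710.

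The other genes of the poly(A) tail pathway were read from a list of 48, of which 45 were tested. At maturation 3 rose, 6 fell and 36 did not pass, against the 6.76% of all tested genes called, and their median difference of -0.31 lay near the -0.44 of all genes. None of the 7 other poly(A) binding genes and none of the 12 cleavage and polyadenylation genes tested were among the 9 called. Pabpc4l and Pabpc5, further members of the cytoplasmic type, were listed at 0 in all 6 libraries. Leaving out Treat_MII replicate 1 or 2 left 0 of the 9 called, either WT_MII library left 2, WT_FGO replicate 1 left 5 and WT_FGO replicate 2 left 4. Centring called 6 genes, with 4 higher and 2 lower, of which 5 were among the 9.

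Among the listed regulators that act with the cytoplasmic poly(A) binding protein was Pan2, the catalytic subunit of the PAN2-PAN3 deadenylase. Pan2 had 23.6 and 28.5 FPKM in WT_FGO and 323 and 268 FPKM in WT_MII. It rose by 3.46 on the log2 scale (limma, adjusted p = 0.00557). Atxn2l, the ataxin-2-like protein, had 44.2 and 88.2 FPKM in WT_FGO and 767 and 671 FPKM in WT_MII, a rise of 3.50 (limma, adjusted p = 0.00709). Each rested on more WT_FGO reads than Pabpn1l, 8 and 11 for Pan2 and 15 and 34 for Atxn2l. Tob2, which links the poly(A) binding protein to the CCR4-NOT deadenylase, had 82.0 and 54.1 FPKM in WT_FGO and 11.7 and 8.37 FPKM in WT_MII, from 2 reads in each, and fell by 2.63 (limma, adjusted p = 0.0486). Of 15 alternatives, Tob2 was called in 1, a minimum of 5 FPKM, against 11 for Pan2 and 9 for Atxn2l.

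Of the 8 poly(A) polymerases tested, Tent4a rose and Tent5b and Tent5c fell. Tent4a had 49.5 and 27.7 FPKM in WT_FGO and 152 and 252 FPKM in WT_MII, a rise of 2.37 (limma, adjusted p = 0.0440). Tent5b had 141 and 197 FPKM in WT_FGO and 18.9 and 30.4 in WT_MII, and fell by 2.74 (limma, adjusted p = 0.0385). Tent5c had 235 and 278 FPKM against 36.2 and 11.1, and fell by 3.60 (limma, adjusted p = 0.0302). All 3 are noncanonical poly(A) polymerases, and they were called in 5, 6 and 9 of the 15 alternatives.

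Of the genes that act at the cap and at the stop codon, 3 were lower in WT_MII. Eif4e1b, an oocyte form of the cap binding protein eIF4E, had 1256 and 612 FPKM in WT_FGO and 150 and 112 FPKM in WT_MII, and fell by 2.75 (limma, adjusted p = 0.0188). The release factor genes Gspt2 and Etf1, for eRF3b and eRF1, fell by 2.30 and 5.83 (limma, adjusted p = 0.0453 and 0.0147). Gspt2 had 119 and 190 FPKM in WT_FGO and 30.9 and 28.7 in WT_MII. Etf1 had 6 and 9 reads in WT_FGO and none in WT_MII, at least 4.73-fold lower against a floor of 3 reads per library. Eif4e1b was called in 8 of the 15 alternatives, Gspt2 in 5 and Etf1 in 10.

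**Figure D4:**
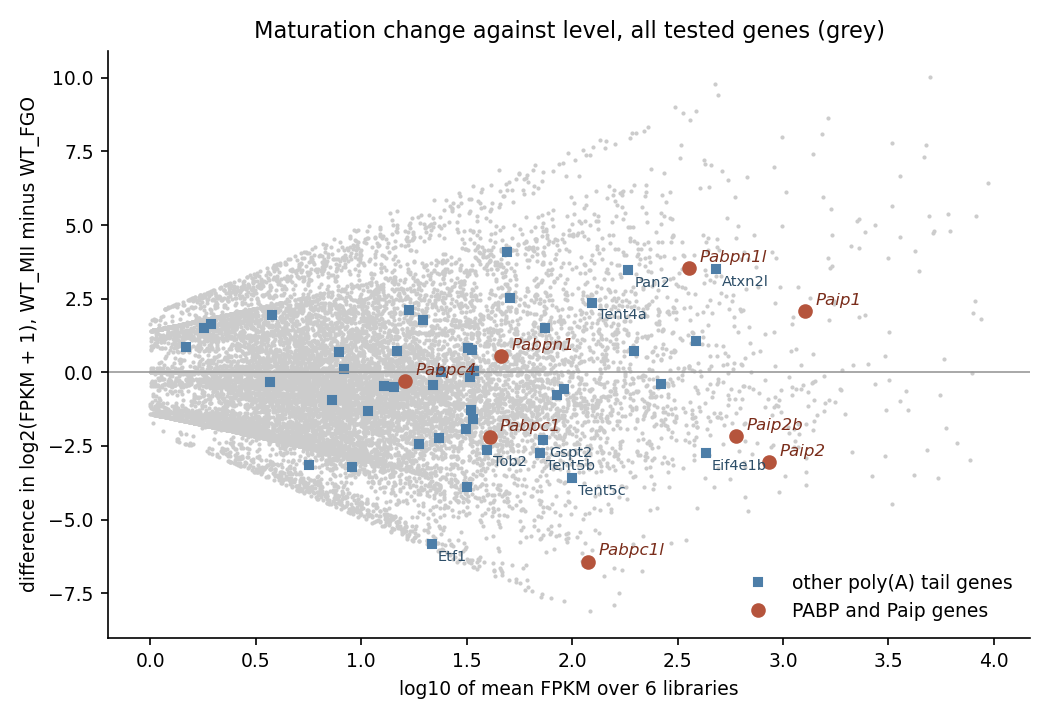
Difference in log2(FPKM + 1) between WT_MII and WT_FGO (vertical axis) against log10 of the mean FPKM over 6 libraries (horizontal axis) for 15129 tested genes (grey), the 8 poly(A) binding protein and partner genes (circles) and 45 other genes of the poly(A) tail pathway (squares, named where called). Pabpc1l has the lowest difference of the circles and Pabpn1l the highest, near Pan2 and Atxn2l.

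With treatment, limma called 0 of the 45 listed genes, and the smallest adjusted p was 0.710. At an unadjusted p under 0.05 there were 3 of the 45, against 881 of all 15129 tested genes. The median difference of the listed genes was 0.09, and that of all tested genes was 0. The largest differences among listed genes of at least 10 FPKM were those of Etf1, Tob2 and Eif4a1. Etf1 had 5 and 2 reads in Treat_MII and 0 in both WT_MII libraries. Tob2 had 32.1 and 49.1 FPKM in Treat_MII against 11.7 and 8.37 in WT_MII, a difference of 1.90. Eif4a1, the helicase of the cap complex, had 16.3 and 5.61 FPKM against 18.7 and 0. Only Tob2 of the 3 had over 10 reads in each treated library.

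Between Treat_MII and WT_FGO, limma called 4 of the 45 listed genes, against the 3.85% of all tested genes. Pan2 and Atxn2l were higher in Treat_MII, with 219 and 248 FPKM and 652 and 660 FPKM there, and Tent5b and Tent5c were lower, with 14.1 and 22.7 FPKM and 18.0 and 18.6 FPKM. The median over the list was 0.03. The counts without a library lay between 0 (without Treat_MII replicate 2) and 5.

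The genes with the pattern most like Pabpn1l over the 6 libraries, by Pearson's r of log2(FPKM + 1) among 2065 genes of at least 50 FPKM, were Rbm26 (r = 0.998), Ypel5 (r = 0.996) and Kif4 (r = 0.996). Ypel5 had 643 and 771 FPKM in WT_FGO, 2355 and 3162 in WT_MII, and 3991 and 3688 in Treat_MII. Those most like Pabpc1l were Atp5o (r = 0.997) and Ndufb5 (r = 0.996), both of the mitochondrial respiratory apparatus, and Ube2a (r = 0.995). Ndufb5 had 316 and 266 FPKM in WT_FGO, 0 and 16.1 in WT_MII, and 37.5 and 31.6 in Treat_MII. These values describe 6 libraries, whose depth all genes share.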

How the data were processed

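Ribo-lite footprints of 6 libraries were deposited as FPKM per gene, which the authors made from reads placed on mm10. The submitters' processing notes name cutadapt 1.14, Bowtie2 2.2.2 and STAR 2.5.3a. The counting program, annotation release and handling of molecular identifiers are not given in the sources used here, and no spike-in is stated. After 26 entries with a repeated name were left out, 22416 genes remained. With GENCODE coding lengths, 96.3% of all genes gave whole reads in all libraries within 0.02 reads. RNA-seq libraries were not used, and footprints per mRNA were not computed.

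Genes whose mean reached 1 FPKM (15129) were tested on log2(FPKM + 1), a scale that understates changes of low genes. The test was lmFit and eBayes with trend in limma 3.58.1 (R 4.3.3), with 3 groups in 1 fit. It was first checked on simulated reads, drawn with a spread set beforehand. There it called 22% of 100 genes changed by 3 on the log2 scale and 70% of 100 changed by 6. These genes were drawn from those with at least 60 reads over all libraries, so the shares do not cover Pabpc4, with 30 reads. The test also made 10 false calls. A gene that did not pass may thus still have changed. Deviations of libraries with the same replicate number hardly correlated (0.0342, 0.0176 and 0.0189 over 2706 genes with at least 60 reads over all libraries). Counting error is large at such depths, so this check cannot exclude pairing. The named genes were the 8 members, list genes called in a comparison (otherwise up to 3 with the largest difference at 10 FPKM or more), and the 3 closest patterns for Pabpn1l and Pabpc1l. Members and lists were chosen with earlier results of these data known. The alternatives were another pseudocount, filter, scaling, trend or set of groups, a replicate block, leaving out each library, and limma-voom on the recovered reads.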

Additional observations from a re-analysis of the deposited data

How the results depend on the processing

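Of 360 refits of the 8 genes' differences, 301 kept direction and side of the threshold, 38 lost the call, 8 gained one and 13 changed sign. The counts of calls were less stable than the values. With the compared groups alone, maturation calls went from 4 to 0 of the 8 genes, 9 to 0 listed genes and 1023 to 0 of all genes, and those of Treat_MII against WT_FGO from 3 to 0, 4 to 0 and 583 to 32. Without the trend these were 0, 1 and 328, and 0, 0 and 59. With limma-voom on recovered reads, chosen after seeing the data and testing 14544 genes, 6 of the 8, 14 listed genes and 2378 genes in all were called at maturation, 6 of the 8, 19 listed and 2834 in all against WT_FGO, and, with treatment, 1 listed gene (Larp1, 3 reads in each WT_MII library and 0 in Treat_MII, named after its values were seen) and 165 in all. Leaving out a library gave, for maturation, 0 to 3 of the 8, 0 to 6 listed and 0 to 1842 in all; for treatment, 0 to 1, 0 to 0 and 0 to 418; and against WT_FGO, 1 to 2, 0 to 5 and 139 to 1605.

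Median centring turned the split of maturation calls from 555 higher and 468 lower to 758 and 305, and against WT_FGO from 432 and 151 to 593 and 65; the members called were the same. Quantile normalization gave 686 and 402 at maturation. Sign changes concerned differences near 0 or from few reads. Pabpc4 at maturation was 0.18 with centring, 0.54 with quantile normalization and -1.84 to 1.27 without a library. Against WT_FGO it was 0.0698 with quantile normalization and -2.41 to 0.69 without a library. With treatment Pabpc1 was 0.00998 with a pseudocount of 0.1, 0.11 with quantile normalization and -1.28 to 1.23 without a library, Paip1 -0.30 to 0.25 and Paip2b -0.0838 to 0.98. The replicate block added Paip2b to the maturation calls of the 8 genes (5 in place of 4), gave 6 listed genes and 788 genes in all there, and changed no other call of the 8. Where no construction is named, the cause was not tested. Reads limit Pabpn1, Pabpc1 and Pabpc4 most, with 65, 71 and 30 reads over all libraries.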
